A study of Mus musculus with 4 samples.

Results

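The 10 genes described here, Igf2, H19, Dlk1, Meg3, Peg3, Mest, Snrpn, Plagl1, Peg10 and Grb10, are imprinted genes of the mouse, chosen by name among 31358 protein-coding and long noncoding (lncRNA) genes. The data were ChIP-seq maps of PHF2 and of H3K9me2 (histone H3 dimethylated at lysine 9) in neural stem cells of E12.5 wild-type C57BL/6J embryos, cultured with EGF at 20 ng/ml and FGF at 10 ng/ml. There were 4 samples in 4 groups of 1: the PHF2 precipitate (antibody D45A2), its input, the H3K9me2 precipitate (antibody ab1220) and its input. A gene counted as carrying a PHF2 peak or an H3K9me2 region where one overlapped, by 1 bp or more, the window of 1 kb on either side of any of its annotated transcript starts. The values were positions in 2 lists of called peaks, so the depth is unknown, no spread between cultures could be measured and no test between genes was made. The strain is inbred, so the 2 parental copies of a gene cannot be told apart, and a peak in some of the cells cannot be told apart from a peak in every cell.

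Imprinted genes are expressed mainly from the copy inherited from 1 parent. Their expression depends on regions whose DNA methylation is set in only one of the parental germlines and kept on that copy afterwards, together with H3K9 methylation, and the zinc finger protein ZFP57 binds the methylated hexamer TGCCGC in such regions. PHF2 is a Jumonji histone demethylase described as acting on H3K9me2, with a PHD finger that binds H3K4me3, the mark of active promoters. For Peg3, Mest, Snrpn, Plagl1, Peg10 and Grb10, a region methylated in the oocyte lies at a promoter, and for Igf2, H19, Dlk1 and Meg3 the controlling region is intergenic and methylated in sperm. These classes are background and were not measured here.

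PHF2 was mapped to 3 of the 10 genes, Peg3, Mest and Peg10, and H3K9me2 to the starts of 0 of them. The 3 PHF2 peaks lay at promoters with an oocyte-methylated region, a class with 6 members here. Of the 4 genes with an intergenic sperm-methylated region, 0 had a peak. These 4 genes come from just the Igf2-H19 and Dlk1-Meg3 domains, and a difference between the classes was not tested. Over all protein-coding and lncRNA genes, 23.3% had a PHF2 peak within 1 kb of a start and 3.20% had an H3K9me2 region. Over the 21755 protein-coding genes alone the shares were 29.3% and 3.49%. The share of the 10 genes with a PHF2 peak, 30.0%, was thus near that of protein-coding genes, and an H3K9me2 region at a start was rare among genes of any kind. Neither count set these imprinted genes apart from other genes.

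The sequences near the centres of the 3 PHF2 peaks are printed to show how far they differ in CpG content. Each line gives the 300 bp of the peak nearest to its centre that held no annotated UTR base, from the mm10 plus strand, with the CpG dinucleotides in capitals.
Peg3 (chr7:6729958-6730257): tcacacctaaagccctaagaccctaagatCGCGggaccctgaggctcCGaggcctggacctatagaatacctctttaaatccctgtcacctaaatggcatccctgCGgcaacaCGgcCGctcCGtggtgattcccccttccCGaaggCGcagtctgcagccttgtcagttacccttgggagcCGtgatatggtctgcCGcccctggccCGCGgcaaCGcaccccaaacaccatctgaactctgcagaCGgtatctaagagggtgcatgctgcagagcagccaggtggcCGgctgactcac
Mest (chr6:30738459-30738758): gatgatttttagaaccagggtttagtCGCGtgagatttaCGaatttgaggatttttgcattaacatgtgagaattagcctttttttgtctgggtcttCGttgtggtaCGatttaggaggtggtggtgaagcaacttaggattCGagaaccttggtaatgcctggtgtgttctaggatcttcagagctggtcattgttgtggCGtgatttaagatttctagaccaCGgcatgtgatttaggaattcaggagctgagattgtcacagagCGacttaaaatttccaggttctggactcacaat
Peg10 (chr6:4747784-4748083): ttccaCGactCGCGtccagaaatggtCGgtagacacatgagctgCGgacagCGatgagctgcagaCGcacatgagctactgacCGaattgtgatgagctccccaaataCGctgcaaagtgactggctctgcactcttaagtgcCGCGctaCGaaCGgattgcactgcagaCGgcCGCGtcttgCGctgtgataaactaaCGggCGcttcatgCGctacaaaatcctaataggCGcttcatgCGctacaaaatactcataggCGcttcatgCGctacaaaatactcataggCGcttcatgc
The Peg10 stretch held 25 CpG, the Peg3 stretch 16 and the Mest stretch 9. The end of the Peg10 stretch ran into a tandem repeat. The 20-base word ggCGcttcatgCGctacaaa, with 2 CpG, occurred 5 times in the peak, always 29 bp apart, over 136 bp from 679 to 814 bp downstream of the first Peg10 start. A stretch of 120 bases there matched itself at a shift of 29 bp in 98.9% of positions. In the peaks of Peg3 and Mest the best self-match of any such stretch was 45.2% and 46.2%.

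**Figure D1:**
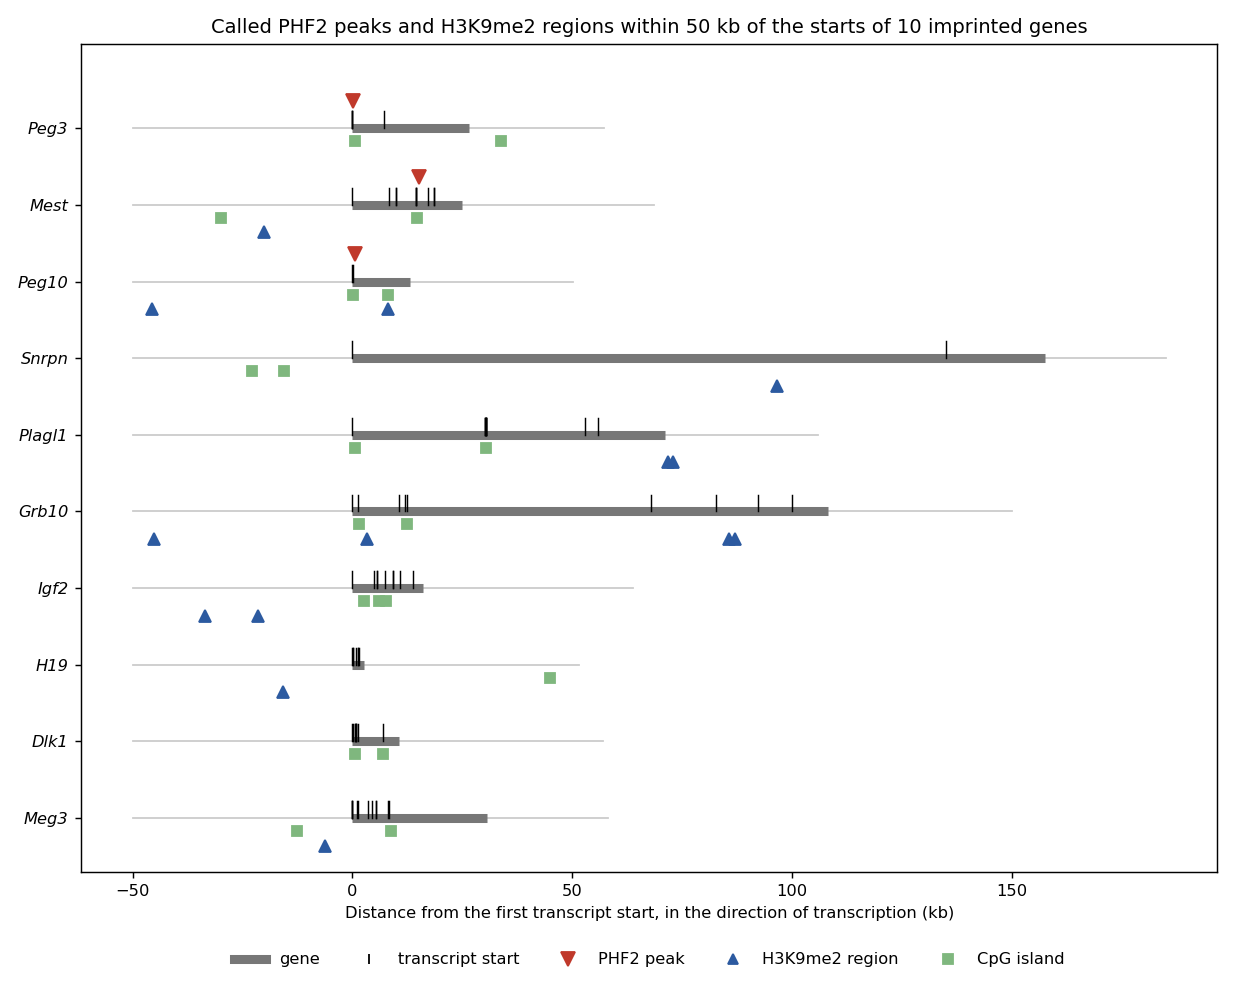
Each row is 1 gene drawn from its first transcript start in the direction of transcription (x axis, kb), with the gene as a grey bar, transcript starts as black ticks, PHF2 peaks as red triangles, H3K9me2 regions as blue triangles and CpG islands as green squares, and the thin line spans 50 kb on either side of the outermost starts. The only PHF2 peaks are the 3 at Peg3, Mest and Peg10, while 14 H3K9me2 regions are spread over 8 of the 10 rows.

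Mest, which encodes a membrane protein of the alpha/beta hydrolase fold expressed from the paternal copy, had the strongest of the 3 PHF2 peaks. Its score was 761.8, higher than 93.8% of the 5992 peaks, which ran up to 3226 with a median of 229.1. The score is the authors' own value per peak, on a scale that neither header nor labels state, and it serves here only to rank peaks. The peak measured 2040 bp (chr6:30737590-30739629) against a list median of 1306 bp. Mest has 10 annotated starts on chromosome 6 (gene 30723547 to 30748465, plus strand), and 3 of them, within a few bases of each other and 14503 to 14508 bp downstream of the first, lay inside the peak. The other 7 starts, the most upstream one included, had no peak within 1 kb. PHF2 was therefore called at 1 internal promoter of Mest, the one that overlaps a CpG island of 1000 bp, and its centre lay 554 bp downstream of the nearest start.

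Peg10 encodes a protein derived from the gag and pol genes of a retrotransposon and is needed for the placenta. It shares a promoter region with Sgce, the gene of epsilon-sarcoglycan, which is transcribed in the opposite direction from a start 99 bp away. A single PHF2 peak with a score of 232.4 (chr6:4747279-4748590, 1312 bp) lay there, in the middle of the list (higher than 51.0% of peaks). Both Peg10 starts were inside it, and its centre lay 528 bp downstream of a Peg10 start. It had 109 CpG at a CpG observed/expected of 1.15, the highest ratio of the 16 PHF2 peaks found at imprinted genes in this work.

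Peg3, which encodes a zinc finger protein expressed from the paternal copy, is also 1 of a divergent pair. Its partner Usp29, the gene of a ubiquitin peptidase, starts 147 bp away. The PHF2 peak that covers both starts scored 166.7 (chr7:6729592-6730870, 1279 bp), above 30.1% of peaks, and was the weakest of the 3. It covered 3 of the 4 Peg3 starts, and the remaining one lies 7216 bp downstream of the first. This peak covered the first start of Usp29 as well, so the list does not say which gene of the pair it marks. The Peg10 peak covered the Peg10 starts and ended just short of the nearest Sgce start, and Sgce counted as carrying it because it lay within 1 kb.

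**Figure D2:**
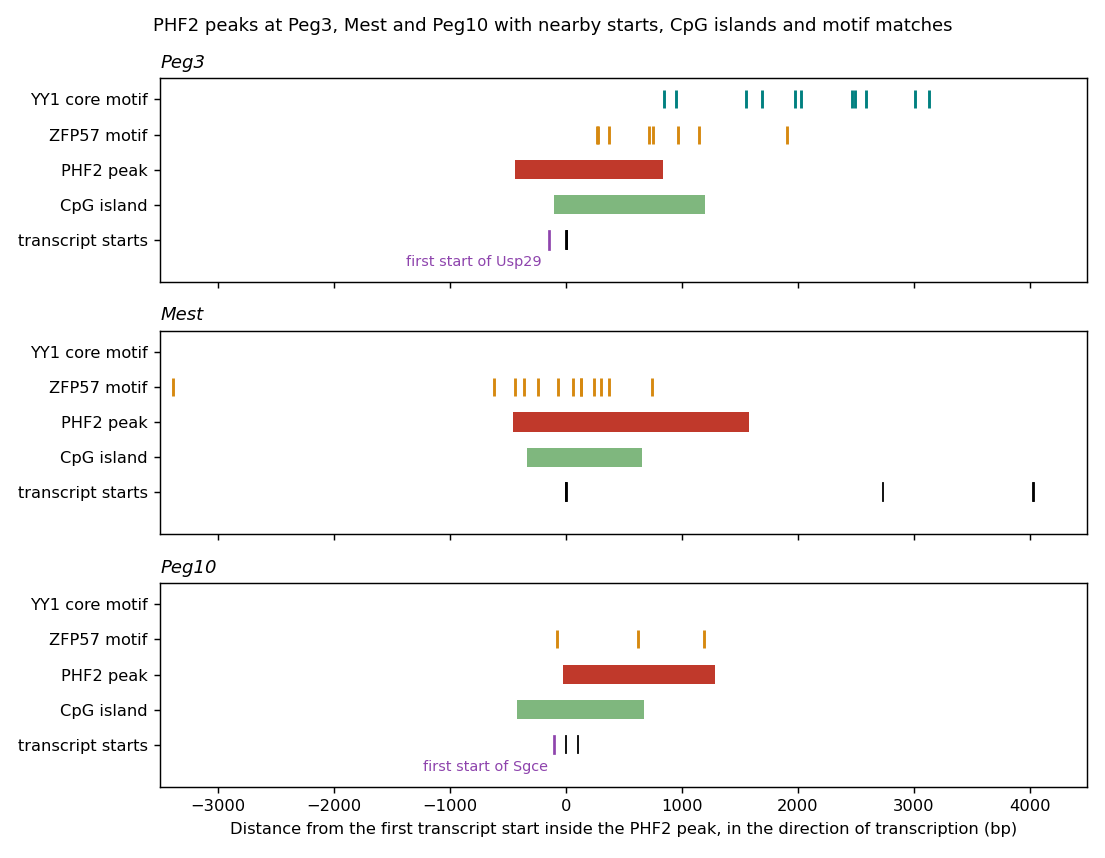
For Peg3, Mest and Peg10, the x axis gives the distance in bp from the first transcript start inside the PHF2 peak, in the direction of transcription; red bars are PHF2 peaks, green bars CpG islands, black ticks the gene's own starts, purple ticks the first start of the divergent partner, and orange and teal ticks matches of the ZFP57 and YY1 motifs within 5 kb of a start. The PHF2 peak of Peg3 ends where the row of 11 YY1 matches begins, and 11 ZFP57 matches lie in the Mest peak.

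The 7 genes without a PHF2 peak at a start had none within 50 kb either. Among the coding genes these were Igf2, the gene of a fetal growth factor; Dlk1, which encodes a transmembrane relative of Notch ligands; Grb10, which encodes an adaptor that restrains insulin and growth factor receptors; Plagl1, which encodes a zinc finger factor; and Snrpn, which encodes a protein of small nuclear ribonucleoproteins. H19 and Meg3 are noncoding RNAs expressed from the maternal copy. The 3 peaks described above were the only ones in the 1269 kb within 50 kb of a start of the 10 genes, and 0 of the 10 genes had a PHF2 peak within 50 kb apart from the one at its own start. Of all genes, 45.4% had a PHF2 peak within 50 kb of a start (50.9% of protein-coding genes), and 31.1% had one there that was not at their own starts. Among the 7317 genes with a peak at a start, 38.6% had another one within 50 kb.

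The distances to the nearest PHF2 peak differed widely among the 7. Plagl1 had one 51.4 kb upstream, whose centre was nearest to a start of Sf3b5, and Grb10 had one 128.9 kb downstream, nearest to Fignl1. For Igf2 and H19 the nearest peak was the one at Cd81, 385.5 kb and 474.1 kb upstream. For Dlk1 and Meg3 it was one nearest to Wdr25, at 558.0 kb and 646.2 kb, and for Snrpn the peak of Ube3a, 775.3 kb downstream. The median of the 7 gaps was 474.1 kb, against 119.2 kb for the 24041 genes of the whole annotation without a peak at a start, and Plagl1 alone lay closer than that median. Igf2 and H19 share 1 domain and 1 nearest peak, as do Dlk1 and Meg3, so the 7 gaps are not independent. Sf3b5, Fignl1 and Wdr25 were named after their values had been seen.

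A CpG island at the promoter did not go with a PHF2 peak in every case. Islands were taken as merged windows of 500 bp with a GC content of 55% or more and a CpG observed/expected of 0.65 or more. There were 20 within 50 kb of the 10 genes, and 3 of them had a PHF2 peak, against 28.0% of the 20706 islands of the genome and 41.8% of the 13582 islands that lay at a start. Of the 12 islands at a start of the 10 genes, the same 3 had a peak. The islands of Igf2 (1740 and 1380 bp), Dlk1 (1340 and 790 bp), Meg3 (500 bp), Plagl1 (910 and 1100 bp) and Grb10 (1650 and 1990 bp) had none. H19 and Snrpn had no island at a start by this definition. An island of 620 bp lay 12.3 kb upstream of Meg3, between Dlk1 and Meg3, and held neither a PHF2 peak nor an H3K9me2 region.

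Promoters of 2 genes without a PHF2 peak, 1 with many CpG and 1 with few, are shown for comparison. Each line gives the 250 bases before a start from the RefSeq table (GRCm38.p6, 5′ to 3′ on the gene's strand), again with CpG in capitals. The table held 8 of the 10 genes, all but H19 and Peg10.
Grb10 (chr11:12037421-12037670, minus strand): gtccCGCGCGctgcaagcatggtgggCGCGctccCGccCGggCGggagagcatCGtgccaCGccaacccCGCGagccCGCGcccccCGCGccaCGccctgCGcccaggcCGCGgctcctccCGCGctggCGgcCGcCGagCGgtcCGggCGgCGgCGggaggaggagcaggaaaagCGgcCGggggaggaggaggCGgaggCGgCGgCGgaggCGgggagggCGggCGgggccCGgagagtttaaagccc
Snrpn (chr7:60005200-60005449, minus strand): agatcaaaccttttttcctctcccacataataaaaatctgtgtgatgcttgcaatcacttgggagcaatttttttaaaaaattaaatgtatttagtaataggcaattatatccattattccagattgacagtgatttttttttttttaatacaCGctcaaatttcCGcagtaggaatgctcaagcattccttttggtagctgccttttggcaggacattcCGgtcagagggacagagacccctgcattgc
This Grb10 promoter held 40 CpG, the most of the 18 such stretches in the table for these genes, and the Snrpn promoter 3. The lowest number was 0, at a Meg3 start. The Mest promoter inside its PHF2 peak held 14 in the same length, and the Peg3 promoter inside its peak 8. By number, promoters with more and with fewer CpG than these therefore lacked a peak. The ratio ranked them otherwise. With the 50 bases after the start included, CpG observed/expected was 0.973 for this Grb10 promoter, 0.574 for Snrpn and 0.463 for Peg3.

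The pooled start windows of the 10 genes had a median CpG observed/expected of 0.426, against 0.323 for all genes, 0.363 for protein-coding genes and 0.513 for genes with a PHF2 peak. With all genes ranked by this ratio and cut into 10 equal groups, Peg10 (0.833, the highest) stood in a group where 63.2% of genes had a PHF2 peak. Grb10 (0.555) and Dlk1 (0.510) followed, in groups where 48.6% and 44.3% of genes had one, and neither had a peak. Plagl1 (0.464) and Peg3 (0.454) stood in the same group as Dlk1, and of these 3 only Peg3 had a peak. Mest had a peak at 0.375, where 25.5% of genes did, while H19 (0.344), Meg3 (0.339), Igf2 (0.398) and Snrpn (0.319, the lowest) had none. The pooled value of Mest takes in its CpG-poor upstream starts, and the PHF2 peak itself had 0.690. With and without a peak, the values of the 10 genes overlapped.

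The hexamer TGCCGC, the ZFP57 motif, was denser than over all genes at the starts of the genes with an oocyte-methylated promoter region. This held with and without a PHF2 call, and most strongly for Snrpn, Peg3 and Mest. It was searched on both strands, and 9 of the 10 genes had a match in their start windows, against 46.6% of all genes. These shares depend on the length searched, which ran from 2101 bp for Peg10 to 14935 bp for Grb10. Densities per kb are therefore given for each gene. The motif was chosen with its place in germline-methylated regions known, so a high density at these genes is no separate evidence for it. Snrpn had 10 matches in its 2 start windows, 2.50 per kb, a density reached by 0.379% of genes. Peg3 had 7 matches (1.74 per kb, reached by 1.10% of genes) and Mest 14 (1.29 per kb, 2.74%). Peg10 had 0.952 matches per kb, Plagl1 0.721 and Grb10 0.603, densities reached by 6.92%, 9.37% and 10.9% of genes. Dlk1 had 0.372, Igf2 0.253 and Meg3 0.107. H19 had 0. The 6 genes of the oocyte class together had 1.09 matches per kb and the 4 others 0.199, against 0.238 for all genes and 0.322 for all genes with a PHF2 peak. The hexamer holds a CpG, so the counts were also set against CpG content. There were 3.90 matches per 100 CpG in the oocyte class, 0.680 in the other class, 1.07 over all genes and 1.10 over genes with a PHF2 peak. Within the oocyte class, Snrpn had 17.9, Peg3 6.80 and Mest 6.11, while Plagl1 had 2.67, Grb10 1.88 and Peg10 1.43. For Igf2, H19, Dlk1 and Meg3 the controlling region is intergenic, so their start windows need not cover it. The low values there therefore do not show that their domains lack the motif. From 1 kb to 5 kb around the starts, H19 went from 0 matches to 6 and Igf2 from 3 to 4. Dlk1 stayed at 2 and Meg3 at 1. A difference between the classes was not tested.

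**Figure D3:**
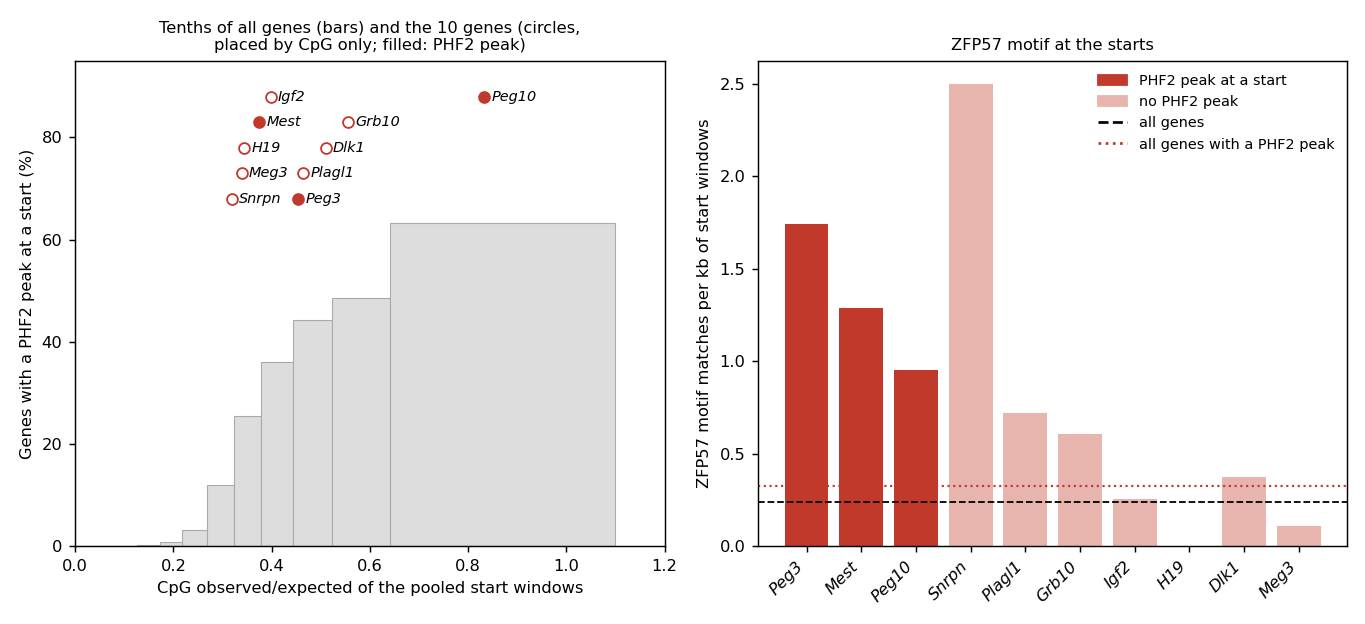
The left panel shows the share of all genes with a PHF2 peak at a start (bars, %) in 10 equal groups of genes by the CpG observed/expected of their start windows (x axis), with the 10 genes as circles at their own CpG value (height without meaning, filled where a peak was called). The right panel gives ZFP57 motif matches per kb of start windows for each gene, with lines for all genes (0.238) and all genes with a PHF2 peak (0.322); Snrpn, without a peak, has the tallest bar at 2.50.

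Within the PHF2 peaks, the same hexamer was counted in the central 1000 bp, which held at least 1 match in 58.8% of the 5992 peaks. Mest had 6 matches there, a number reached by 21 peaks of the list, Peg3 had 3 (reached by 544) and Peg10 had 1 (reached by 3523). Over its whole length the Mest peak held 11 matches, the Peg3 peak 5 and the Peg10 peak 2. A match is a run of letters and does not show that ZFP57 was bound.

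The Peg3 promoter held another run of motifs, which the PHF2 peak touched only at its edge. YY1 is a zinc finger factor known to bind a cluster of sites downstream of the Peg3 start, and its core AAGATGGC was searched on both strands. It occurred 11 times in the 5 kb downstream of the first Peg3 start, a number reached by 4 of 31358 genes (0.0128%), where 31.1% of genes had a match at all. The motif and this span were chosen with the cluster known, so the count locates it and is no separate evidence for it. The 11 matches lay on 1 strand, from 842 to 3130 bp downstream of the start. Within 1 kb of a start, 22.5% of all genes had a match, and 11.1% of PHF2 peaks had one in their central 1000 bp, while the central parts of the 3 peaks described here had 0. The sites nearest to and farthest from the start are shown with 8 bases on either side, the core in capitals, read on the mm10 plus strand.
Peg3 YY1 core 842 bp downstream: caccctccAAGATGGCgccaactg
Peg3 YY1 core 948 bp downstream: gtcatttcAAGATGGCgccaagcg
Peg3 YY1 core 3130 bp downstream: ggccaacaAAGATGGCgccaatga
The first of these (chr7:6729589-6729596) straddled the end of the PHF2 peak, and the other 10 lay outside it. The called peak thus covered the start and ended where the cluster began.

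Upstream of H19 the sequence marked the known control region of the Igf2 and H19 domain, and neither list had a call on it. CTCF is the insulator protein that binds there on the maternal copy. The motif of the CTCF sites of that region, 14 bases with 2 of them free, was searched on both strands. It occurred 3 times in the 5 kb upstream of H19, more often than for any other of the 31358 genes. Of these, 0.0606% had any match in that span. The motif was defined by the sites of this region, so the counts locate the sites and are no separate evidence for them. In start windows it was found at 0.150% of genes and in the central 1000 bp of 0.234% of PHF2 peaks. The 3 matches lay 2.17, 2.62 and 3.89 kb upstream of the first H19 start, and each is shown with 8 bases on either side and the motif in capitals, on the strand of the motif.
H19 CTCF site 2.17 kb upstream (chr7:142580309-142580322): agacgatgCCGCGTGGTGGCAGtacaatac
H19 CTCF site 2.62 kb upstream (chr7:142580764-142580777): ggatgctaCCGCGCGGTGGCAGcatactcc
H19 CTCF site 3.89 kb upstream (chr7:142582034-142582047): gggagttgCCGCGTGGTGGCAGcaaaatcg
Of the 6 TGCCGC matches within 5 kb of an H19 start, those beginning at 142580319 and 142582044 overlapped the first and the last of these CTCF matches. The other 9 genes had 0 matches of this motif within 50 kb of their starts. The H3K9me2 region nearest to H19 lay 15.7 kb upstream of its start, beyond these sites, and the nearest PHF2 peak was at Cd81.

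H3K9me2 regions were found around 8 of the 10 genes, though not at their starts. Within 50 kb of a start there were 14 regions, from 0 for Dlk1 and Peg3 to 4 for Grb10, with a median of 1.00 per gene. Over all genes, 65.0% had a region within 50 kb (63.4% of protein-coding genes), also with a median of 1.00. Per 100 kb of flanking DNA, with overlaps counted once, the 10 genes had 1.10 regions, and the genome outside assembly gaps had 1.41. The number of regions around these genes was therefore not higher than elsewhere. Of the 14 regions, 7 had the minimum length of 73 bp, as did 55.6% of the whole list, and 9 held no base marked as repeat, as did 49.1% of the list. By annotation, 7 lay in introns, 5 in intergenic DNA and 2 in coding exons. No shares over the whole list stand beside these annotation counts, so they show no difference from it.

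Grb10 had the regions closest to a start. The nearest (chr11:12035423-12035495) lay in an intron, 1906 bp from the start at 12037401, and was the smallest gap between a start of the 10 genes and an H3K9me2 region. A region of 138 bp in a coding exon (chr11:11951634-11951771) was longer than 95.1% of the list, and another of 78 bp lay in the intron beside it (chr11:11952847-11952924). The fourth lay 45.1 kb upstream of the first start. Grb10 also had the longest start windows of the 10 genes, 14935 bp, with 9 starts.

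Peg10 had both marks in its gene, apart from each other. An H3K9me2 region of 73 bp lay in a Peg10 coding exon (chr6:4755473-4755545), 8.17 kb downstream of the first start and 6.88 kb from the end of the PHF2 peak. Over the whole list, the gap between a PHF2 peak and the nearest H3K9me2 region had a median of 35.1 kb and was smaller than at Peg10 for 13.5% of peaks. The region lay in a CpG island of 620 bp, although the 73 bp themselves held 0 CpG. Only 8 of the 20706 islands of the genome (0.0386%) overlapped an H3K9me2 region. At Mest the gap was 34.2 kb and at Peg3 79.9 kb. Another H3K9me2 region lay 45.6 kb upstream of Peg10, in an intron of Sgce.

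The remaining H3K9me2 regions near these genes lay outside their start windows at varied distances. Meg3 had 1 intergenic region 6.19 kb upstream of its first start (chr12:109534740-109534812). Plagl1 had 2 downstream of the gene, 15.9 kb and 17.0 kb from its last start. Igf2 had 2 upstream, at 21.6 kb and 33.6 kb, both in introns of the annotated Ins2 gene, and the farther one (chr7:142700409-142700492) lay within 1 kb of an Ins2 start. Mest had 1 region 20.1 kb upstream, and Snrpn had 1 in an intron, 38.4 kb from the nearer of its 2 starts, with 76.1% of its bases marked as repeat. For Dlk1 and Peg3 the nearest regions lay 74.9 kb and 73.5 kb away.

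Other imprinted genes had both calls about as often as genes at large. Of 64 further genes from imprinted domains, 15 (23.4%) had a PHF2 peak at a start, next to 23.3% of all genes. An H3K9me2 region was found for 2 (3.12%), next to 3.20%. Most of the 64 are protein-coding, and over protein-coding genes alone the shares were 29.3% for PHF2 and 3.49% for H3K9me2. The PHF2 share of the 64 thus lay below that of protein-coding genes. The list was written from general knowledge of mouse imprinting. Imprinting of the listed genes in these cells was not measured, and a peak at a listed gene need not lie at an imprinted promoter. Counted with the 10, 18 of 74 genes had a PHF2 peak, on 16 distinct peaks with a median score of 199.9, and 10 of the 16 scored below the list's median.

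Around the 3 genes with peaks, the neighbours had a peak only where they shared that of the member. In the Peg3 domain this was Usp29 and 0 of the other 3 listed genes, in the Peg10 domain Sgce and 0 of the other 7, and in the Mest domain 0 of 2. The listed neighbours of Dlk1 and Meg3 (5 genes), Grb10 (2) and Igf2 and H19 (1) had 0 peaks. The Snrpn domain had 3 of 8: Atp10a (336.9), which encodes a phospholipid flippase and has a debated imprint; Peg12 (372.8), a paternally expressed gene; and Ube3a (192.8), which encodes the ubiquitin ligase of Angelman syndrome and is expressed from the maternal copy in neurons. Atp10a also had an H3K9me2 region in its start windows, as did Ins2, the insulin gene next to Igf2.

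In the Kcnq1 domain 3 of 12 genes had a peak. Kcnq1ot1, the noncoding RNA whose promoter holds the oocyte-methylated region of that domain, scored 199.1 (chr7:143295408-143296829), the tetraspanin gene Cd81 scored 594.1 and Nap1l4, the gene of a histone chaperone, 174.6. Among 22 genes outside these domains, 7 had one. Gab1, which encodes an adaptor of receptor tyrosine kinases, had the highest score of the listed genes, 1299, above 98.4% of all PHF2 peaks. Inpp5f (225.2), Nnat (200.7, on a peak that Blcap shares), H13 (118.3), Nap1l5 (111.0) and Commd1 (107.5) followed, and Blcap had a second peak of its own (145.8). The centres of the peaks at Gab1 and Commd1 were nearest to a start of another annotated gene.

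**Figure D4:**
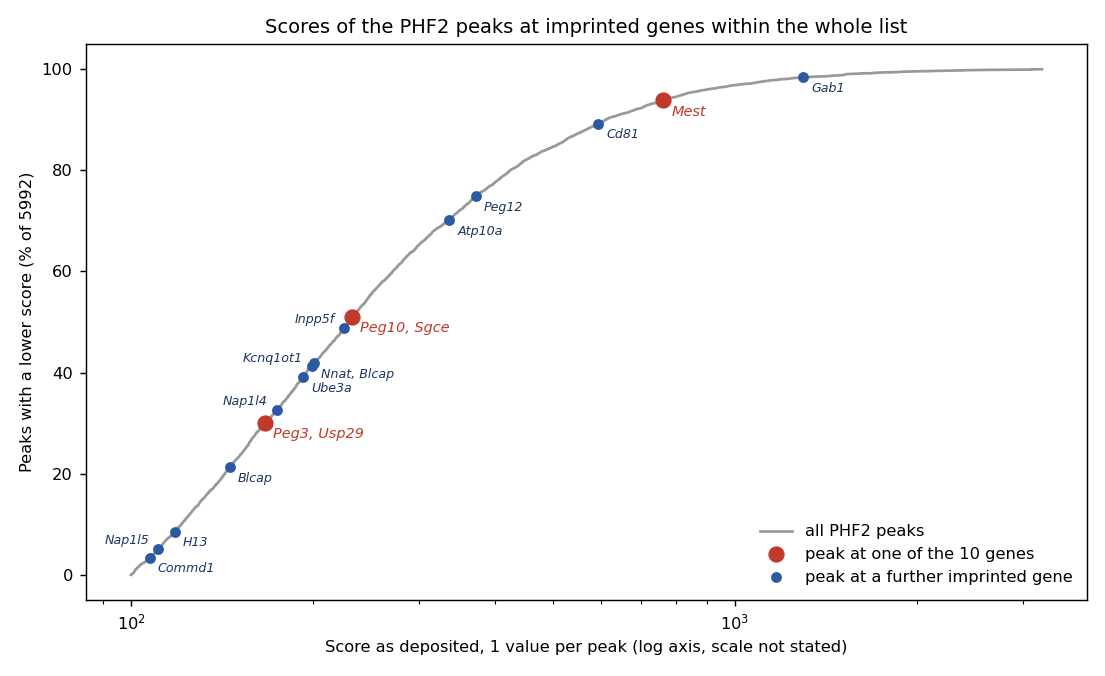
The grey curve gives, for each score on the log x axis, the share of the 5992 PHF2 peaks with a lower score (y axis, %), and the points are the 16 peaks at imprinted genes, red for the 10 genes described here and blue for further genes. Mest (761.8) stands near the top of the curve, Peg10 (232.4) at its middle and Peg3 (166.7) in its lower part.

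Called PHF2 peaks were also counted at cell type markers. They do not measure expression and cannot establish the identity of the cells. Of 10 neural stem cell markers, 8 had a peak at a start (Nes, Sox2, Vim, Sox9, Pax6, Fabp7, Hes1 and Notch1), and of 15 markers of neurons, microglia, endothelium and fibroblasts, 1 did (the neuronal gene Syt1). None of the 25 had an H3K9me2 region there. Over all genes, 23.3% had a PHF2 peak at a start and 3.20% an H3K9me2 region. The PHF2 share ran from 0% to 63.2% between the groups lowest and highest in CpG observed/expected. The markers were not matched for CpG content.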

How the data were processed

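Both lists came from ChIP-seq of neural stem cells. Per the file headers, the authors called PHF2 peaks in Galaxy with MACS. The submitters' processing notes list Bowtie2 and mm10. The settings of MACS are not given in the sources used, nor is the caller of the H3K9me2 list, whose p threshold stands only in its deposited name. The authors' score was deposited once per PHF2 peak and only ranks peaks within that list. In the H3K9me2 list it is 0 throughout. All 5992 PHF2 peaks and 36111 of 36171 H3K9me2 regions were used, those on autosomes or X. They were set against GENCODE M21 starts on GRCm38, the assembly of mm10, with Python 3.11.15 and NumPy 2.4.6. All peak ends lay within that assembly's chromosomes. Depth is unknown, and the inputs were not analysed here. The windows, islands and motifs are described with their results, and the code was tested on simulated data. The members and lists were chosen with earlier results of these data known. The genes named were the 10 members, every further imprinted gene with a call, and genes nearest to a PHF2 peak within 50 kb of a member. Sf3b5, Fignl1 and Wdr25, nearest to more distant peaks, fell outside this rule, as did the cell type markers. Alternatives were other windows, flanks, starts, overlaps, islands and subsets of both lists.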

Additional observations from a re-analysis of the deposited data

How the results depend on the processing

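Peak lists without read counts or replicates limit what these values show: a gene without a call may still carry the protein or the mark. The 3 genes with a PHF2 peak were the same with windows of 500 bp, 2 kb and 5 kb and with peak centres. Of all genes, 23.0%, 23.8%, 25.1% and 22.7% had a peak with these settings. The 5'-most start alone left 2 (without Mest), beside 21.8% of all genes. The higher-scoring 50% of peaks left 2 (without Peg3), beside 12.0% of all genes. That subset left 5 of the 64 further genes with a peak in place of 15, while over all genes the share went from 23.3% to 12.0%. For H3K9me2 at starts, windows of 2 kb and of 5 kb each gave 1 gene, Grb10, in place of 0, beside 6.37% and 14.5% of all genes. For the 64 further genes the number of 2, beside 3.20% of all genes, became 1 with windows of 500 bp (1.57% of all genes), 4 with 2 kb (6.37%), 12 with 5 kb (14.5%), 1 with the 5'-most start (1.66%) and 1 with regions over the minimum length (1.36%). The 14 regions within 50 kb became 8 within 20 kb, 27 within 100 kb and 7 with regions over the minimum length. These alternative counts have no value over all genes beside them. With islands from windows of 200 bp, a GC content of 50% and a CpG observed/expected of 0.60, changed together, 4 of 132 had a PHF2 peak, beside 4.51% of all such islands. No paired analysis was possible because each group has 1 sample.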

Other observations

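Among the 16 PHF2 peaks at imprinted genes, those with the most TGCCGC matches in the central 1000 bp were at Mest (6), at Nnat and Blcap (6) and at Nap1l5 (5). Over the whole list, 78 of 5992 peaks (1.30%) had 5 or more. Peg3 and Kcnq1ot1 had 3 each, so 5 of the 16 had 3 or more, where 9.08% of all peaks did. The peaks at Ube3a, Peg12, Inpp5f, Cd81 and Gab1 had 0, and the median of the 16 was 1.00, that of all peaks also 1.00. This threshold was chosen after the values had been seen, and the cause of the spread was not tested.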
